A study of Mus musculus with 2 samples.

Results

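The miR-17 cluster, named in full for its first and last hairpins, miR-17 and miR-92a, and the miR-106b-25 cluster are related groups of microRNA hairpins that are each cut from 1 long transcript. Their 9 members were taken by gene identifier and position from the 2202 annotated microRNA genes. Mir17, Mir18, Mir19a, Mir20a, Mir19b-1 and Mir92-1 make up the first cluster, on chromosome 14, and Mir106b, Mir93 and Mir25 the second, in the gene Mcm7 on chromosome 5. They were measured by small RNA sequencing of total RNA from the gastrocnemius, a calf muscle, of female B6CASTF1/J mice aged 25 days. This strain is the F1 hybrid of C57BL/6J and CAST/EiJ. No treatment was named in the labels. The 2 libraries formed 1 group, labelled biological replicates 1 and 2. Their source females carry separate numbers and 1 common donor identifier, so the spread between them may or may not be that between animals, and p-values here compare libraries and not conditions.

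MicroRNAs guide silencing proteins to messenger RNAs that pair with their seed, bases 2 to 8 of the mature strand. The miR-17 cluster is a known oncogenic cluster, activated by MYC and E2F factors, and its microRNAs repress inhibitors of the cell cycle and promoters of cell death. The miR-106b-25 cluster lies within introns of Mcm7, which encodes a subunit of the helicase that licenses DNA replication, and is transcribed with it. Both are known for high levels in dividing progenitors and lower levels in differentiated tissue such as muscle fibres. Proliferation itself was not measured here, nor was the messenger RNA of Mcm7.

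The mature sequences show which members share a seed and so a set of possible targets. All 9 members matched the RefSeq table of the GRCm38.p6 build, the assembly also called mm10. The usual guide strand of each is given 5′ to 3′, with the seed in capitals.

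miR-17-5p: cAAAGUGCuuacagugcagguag
miR-20a-5p: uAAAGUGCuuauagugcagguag
miR-93-5p: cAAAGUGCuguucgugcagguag
miR-106b-5p: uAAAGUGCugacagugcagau
miR-18a-5p: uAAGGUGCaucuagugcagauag
miR-19a-3p: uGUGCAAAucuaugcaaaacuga
miR-19b-3p: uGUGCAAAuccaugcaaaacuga
miR-92a-3p: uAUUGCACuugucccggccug
miR-25-3p: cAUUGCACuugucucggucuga

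The 9 members carry 4 seeds, and 2 of these seeds are present in both clusters. Mir17, Mir20a, Mir93 and Mir106b share AAAGUGC, the seed of the miR-17 family. Mir92-1 and Mir25 share AUUGCAC, that of the miR-25 and miR-92a family. Mir18 alone among the members has AAGGUGC, and Mir19a and Mir19b-1 have GUGCAAA. In 7 members the guide strand is encoded at 1 gene of the RefSeq table. The exceptions are miR-19b-3p, also encoded by Mir19b-2, and miR-92a-3p, also encoded by Mir92-2, both in a related cluster on the X chromosome. The files count reads per hairpin, so the strands of a hairpin cannot be told apart, and reads that aligned to several places, 69.1% ± 0.794 (SD, n = 2) of all reads, were given to no gene.

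In the mm10 assembly the 6 hairpins of the first cluster span 836 bases of chromosome 14, from 115043671 to 115044506 on the forward strand. All of them lie in the exon of the annotated transcript of Mir17hg, the long non-coding host gene, which runs from 115042879 to 115046727. The 3 hairpins of the second cluster span 498 bases of chromosome 5, from 138165321 to 138165818 on the reverse strand. Mcm7 runs from 138164583 to 138172422 on that strand. Mir106b is intronic in both annotated Mcm7 transcripts that cover it. Mir93 and Mir25 are each intronic in 2 of the 3 transcripts that overlap them and overlap an exon of the other 1. No annotated gene other than these hosts, microRNA genes aside, overlapped a member, and no read was counted on the strand opposite a member in either library.

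Replicate 1 held 1573213 counts on the strand of microRNA genes and replicate 2 held 5429127, so levels from replicate 2 have the smaller counting error. The unit of level is CPM, a gene's counts for every 1000000 on microRNA genes. Each read is taken as a whole mature microRNA, so CPM is not divided by hairpin length. A count of 0 allows up to 3 counts, which is 1.91 CPM in replicate 1 and 0.553 CPM in replicate 2. Markers of striated muscle were present in both libraries: all 9 on the list were detected, with summed levels of 36362 and 74995 CPM in replicates 1 and 2. By these counts the list was led by Mir206, and none of its members was at 0. Reads that aligned to several places were not counted, so the order of the true levels within the list is uncertain.

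Together the 2 clusters were a small part of the counts given to microRNA genes. Reads that aligned to several places are in neither these counts nor the totals, so the shares are not those of the whole muscle microRNA pool. In a tissue library, fewer cells of a type and less RNA per cell cannot be told apart. They held 12808 counts in replicate 1 and 30056 in replicate 2. That was 0.814% of the first library and 0.554% of the second, a mean of 0.684% ± 0.184 (SD, n = 2). The miR-17 cluster held 0.409% (exact binomial 95% interval 0.399 to 0.419) of replicate 1 and 0.320% (0.315 to 0.324) of replicate 2, with a mean of 0.365% ± 0.0634. The miR-106b-25 cluster held 0.405% (0.395 to 0.415) and 0.234% (0.230 to 0.238), with a mean of 0.319% ± 0.121. The gap between the mean shares was smaller than either SD. The miR-17 cluster was the larger in both libraries, but in replicate 1 the intervals of the clusters overlapped. These intervals, and all others here, cover counting error only and treat reads as independent. Reads without molecular identifiers are not independent molecules, and the labels name no such identifiers, so the intervals may be too narrow.

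Of the 9 members, 7 reached the 2 CPM in each library that were required to call a gene detected, which 14.7% of all microRNA genes reached. Mir17 was the highest member by mean level, at 2067 and 1643 CPM in replicates 1 and 2. By these counts, which lack reads that aligned to several places, it ranked 51 and 54 among all microRNA genes. Mir93 had 2134 and 1337 CPM, at ranks 48 and 60. Mir93 was thus the highest member in replicate 1 and Mir17 in replicate 2, and their mean levels of 1735 ± 564 and 1855 ± 300 CPM (SD, n = 2) did not differ beyond the spread. Mir20a had 1415 and 968 CPM and Mir106b 1565 and 800 CPM. The means of this pair, 1191 ± 316 and 1182 ± 541 CPM, were also within the spread of each other, and their order turned between the libraries.

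The other 3 detected members were lower. Mir92-1 had 390 and 412 CPM in replicates 1 and 2, with a mean of 401 ± 15.4 CPM. Mir25 had 349 and 203 CPM, with a mean of 276 ± 103 CPM. Mir18 had 220 and 171 CPM, with a mean of 195 ± 34.7 CPM. The ranges of Mir25 and Mir18 overlapped, although Mir25 was above Mir18 in both libraries. Mir92-1 was above both in each library, and all 4 genes of the miR-17 seed were above Mir92-1 in each. Divided by hairpin length, the mean levels kept this order except that Mir106b then stood above Mir20a.

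**Figure D1:**
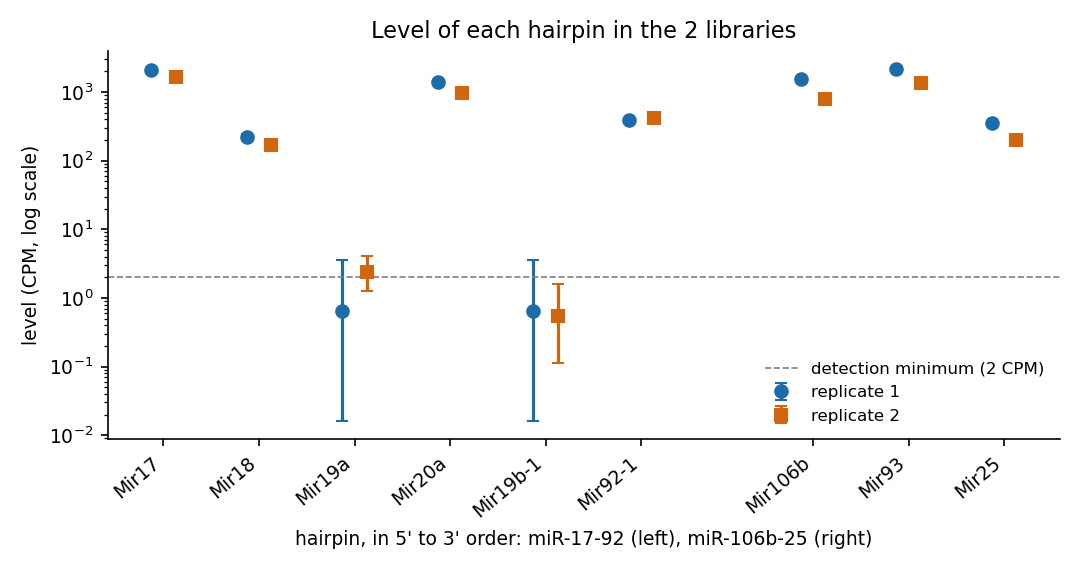
Level of the 9 hairpins in each library, on a log scale in CPM, in the order in which they lie along each transcript. Circles are replicate 1 and squares replicate 2, bars are exact 95% intervals and the dashed line is 2 CPM. The 7 detected hairpins sit between 171 and 2134 CPM, while Mir19a and Mir19b-1 lie below 3 CPM.

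The miR-19 hairpins were nearly without counts. Mir19a had 1 count in replicate 1 and 13 in replicate 2, or 0.636 and 2.39 CPM (exact 95% intervals 0.0161 to 3.54 and 1.27 to 4.09). Mir19b-1 had 1 and 3 counts, or 0.636 and 0.553 CPM, both at or under the 3 counts that a count of 0 allows. Mir17, at the start of the same transcript, had 3252 and 8918 counts, and Mir20a, which lies between the miR-19 hairpins, had 2226 and 5256.

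The strand of Mir19b-1 is shared with Mir19b-2, which had 1 and 2 counts. The strand of Mir92-1 is shared with Mir92-2, and Mir92-1 had 614 and 2237 counts. The guide strand of Mir19a belongs to a single gene and differs from miR-19b-3p by the substitution U11C, counted from 1 at the 5′ end of miR-19a-3p. That of Mir17 differs from miR-106a-5p by U10A alone. Which reads of these genes aligned to several places was not tested, since the tally of such reads is not split by gene. The levels of Mir17, Mir19a, Mir19b-1 and Mir92-1 are uncertain for this reason.

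The hairpins of the shared strands are printed here to show how much of each is its own, with the guide strand in capitals and the rest of the hairpin in lower case.

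Mir19b-1: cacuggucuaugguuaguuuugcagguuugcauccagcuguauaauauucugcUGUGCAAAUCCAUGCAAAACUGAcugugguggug
Mir19b-2: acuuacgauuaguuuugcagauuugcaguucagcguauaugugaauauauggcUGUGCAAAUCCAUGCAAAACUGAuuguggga
Mir92-1: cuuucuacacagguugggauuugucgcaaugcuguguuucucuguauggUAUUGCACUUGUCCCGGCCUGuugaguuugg
Mir92-2: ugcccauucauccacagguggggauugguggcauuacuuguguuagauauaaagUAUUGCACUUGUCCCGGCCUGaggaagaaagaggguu

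Outside the guide strand, 64 bases of Mir19b-1 and 59 bases of Mir92-1 remain, which include the passenger strand of each. These hairpins lie on chromosome 14 from 115044305 to 115044391 for Mir19b-1 and from 115044427 to 115044506 for Mir92-1, on the forward strand. Their X-linked relatives lie on the reverse strand, from 52741983 to 52742066 for Mir19b-2 and from 52741838 to 52741928 for Mir92-2.

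By seed, the miR-17 family held most of the counts of the 2 clusters. Its 4 members summed to 7181 CPM in replicate 1 and 4747 CPM in replicate 2. With Mir106a, Mir20b and Mir6383, the other genes that carry the seed, the family reached 7201 and 4755 CPM. Mir17 supplied 28.7% and 34.5% of that family's counts in replicates 1 and 2, Mir93 29.6% and 28.1%, Mir106b 21.7% and 16.8%, and Mir20a 19.6% and 20.4%. No single gene thus carried the family, and each cluster gave a large part of it.

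The miR-25 and miR-92a family reached 805 and 669 CPM. Mir92-1 supplied 48.5% and 61.6% of its counts and Mir25 43.4% and 30.3%. Of the further genes with this seed, Mir32 had 34.3 and 39.8 CPM, Mir92b 10.2 and 3.32 CPM, and Mir367, known from pluripotent cells, had no count in either library. The miR-18 family, Mir18 and Mir18b, reached 220 and 171 CPM, nearly all from Mir18. The 3 genes of the miR-19 family together had 3 counts in replicate 1 and 18 in replicate 2. Reads that aligned to several places are missing from these sums and shares. How many came from miR-92a-3p and miR-19b-3p, each shared with an X-linked gene, is not known.

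**Figure D2:**
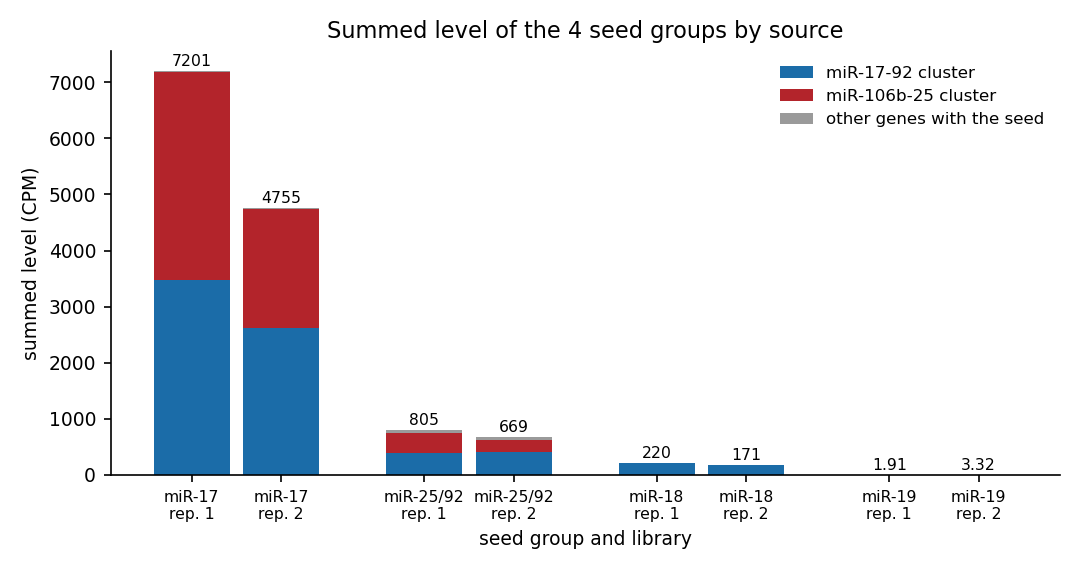
Summed level in CPM of all genes that share each of the 4 seeds, by library, stacked by the cluster the gene belongs to. Reads that aligned to several places are not in these sums. The miR-17 seed group stands at 7201 and 4755 CPM with large parts from both clusters, and the miR-19 group at 1.91 and 3.32 CPM is too low to see on this axis.

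The related miR-106a-363 cluster on the X chromosome, which arose by duplication and repeats the same seeds, was far lower. Its 6 genes had 66 counts in replicate 1 and 111 in replicate 2, or 42.0 and 20.4 CPM in all, and 3 of the 6 were detected. Mir106a had 12.1 and 3.87 CPM, against which Mir17 was 171-fold (exact 95% interval 109 to 285) and 425-fold (278 to 686) higher. Mir20a was 171-fold (99.9 to 322) and 229-fold (152 to 361) higher than Mir20b, its counterpart at 8.26 and 4.24 CPM. Mir92-1 was 20.5-fold (14.2 to 30.6) and 44.7-fold (33.8 to 60.5) higher than Mir92-2, the most abundant gene of the X-linked cluster, at 19.1 and 9.21 CPM. Mir363 had 3 and 12 counts and Mir18b 0 and 3. Near-identical guide strands make the levels of this cluster uncertain in the same way as those above.

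Within each cluster, the hairpins' proportions of the counted reads were similar in the 2 libraries, with small shifts. In the miR-17 cluster, Mir17 held 50.5% of the counts in replicate 1 (exact 95% interval 49.3 to 51.7) and 51.4% in replicate 2 (50.6 to 52.1). Mir18 held 5.37% (4.83 to 5.95) and 5.35% (5.02 to 5.69). The intervals of these shares overlapped. Mir20a held 34.6% (33.4 to 35.7) and 30.3% (29.6 to 31.0). Mir92-1, the last hairpin of the transcript, held 9.53% (8.83 to 10.3) and 12.9% (12.4 to 13.4). The intervals of Mir20a and Mir92-1 did not overlap between the libraries. Reads that aligned to several places are missing from these shares, and miR-92a-3p and miR-19b-3p are each shared with an X-linked gene. The shares are thus those of the counted reads and may not be those of the transcript's products.

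In the miR-106b-25 cluster, Mir93 held 52.7% (51.5 to 53.9) of replicate 1 and 57.1% (56.3 to 58.0) of replicate 2. Mir106b held 38.7% (37.5 to 39.9) and 34.2% (33.4 to 35.0). Mir25 held 8.62% (7.94 to 9.34) and 8.67% (8.18 to 9.17). The share of Mir25 thus did not differ beyond counting error, while that of Mir93 was the higher in replicate 2 and that of Mir106b the higher in replicate 1. In both clusters the pair of hairpins with the AAAGUGC seed held most of the counts, from which reads that aligned to several places are missing.

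**Figure D3:**
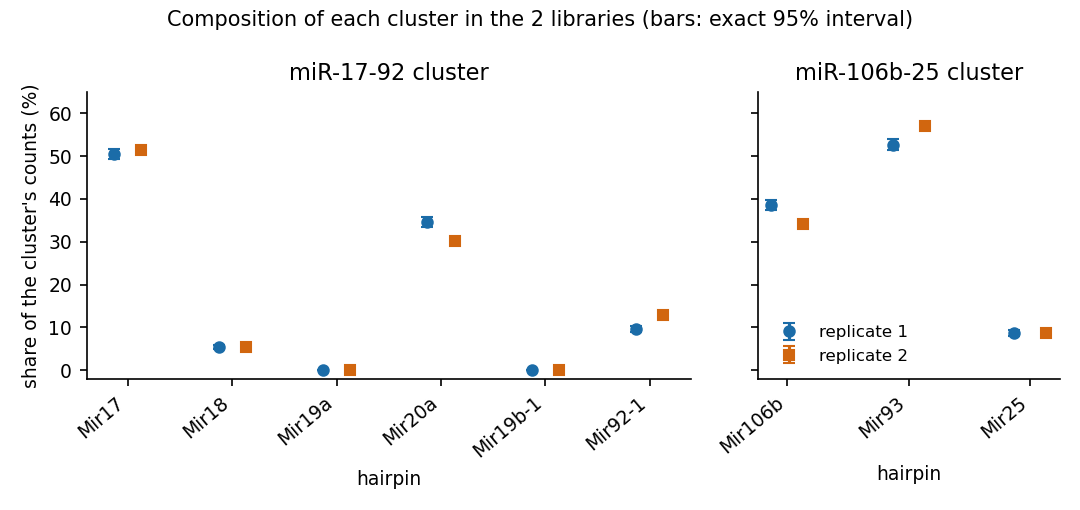
Share of each cluster's counts held by each hairpin, in percent, for replicate 1 (circles) and replicate 2 (squares) with exact 95% intervals. Mir17 and Mir93 lead their clusters in both libraries, at 50.5 and 51.4% and at 52.7 and 57.1%. Reads that aligned to several places are not in these shares.

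Most members were higher in replicate 1. The 364 genes with 10 or more counts over both libraries were each put to a two-sided exact binomial test, with Benjamini-Hochberg adjustment over all of them. Of the 8 members tested, 6 were higher in replicate 1, a call made for 30.2% of all tested genes. None was higher in replicate 2, a call made for 15.1%, and none reached an unadjusted p under 0.05 in that direction, although Mir92-1 was called so under edgeR's TMM scaling and under DESeq2 size factors. Over all tested genes, calls of higher in replicate 1 and in replicate 2 numbered 110 and 55 with library totals, 90 and 76 with TMM and 80 and 95 with DESeq2, so the split rests on the scaling. Log2 ratios, of replicate 2 over replicate 1, had a median of -0.46 for the 8 members and -0.15 for all tested genes. Among genes with at least 100 counts in each library, it was -0.55 for 7 members and -0.05 for all 192.

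All 3 hairpins of the Mcm7 intron were higher in replicate 1. Mir106b, at 1565 and 800 CPM, had a log2 ratio of -0.97 (exact 95% interval -1.04 to -0.90, adjusted p = 3.61e-143 in the exact binomial test), or 1.96-fold. Of the 192 genes with at least 100 counts in each library, 9 had a lower ratio. Mir25, at 349 and 203 CPM, had a ratio of -0.78 (-0.93 to -0.63, adjusted p = 8.14e-23) and was 1.72-fold higher in replicate 1. Mir93, at 2134 and 1337 CPM, had a ratio of -0.68 (-0.73 to -0.62, adjusted p = 2.67e-103), or 1.60-fold. The test takes counting as the only error. The SD of a single log2 ratio between these libraries, from the biological coefficient of variation of 24.5% that edgeR estimated over 324 detected genes, was 0.50, and all 3 ratios were beyond it. With scaling over all genes, which was added once the data had been seen, the ratio of Mir93 was -0.50 (TMM) and -0.47 (DESeq2), within the unrounded SD.

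The miR-17 hairpins differed less. Mir20a, at 1415 and 968 CPM, had a log2 ratio of -0.55 (-0.62 to -0.48, adjusted p = 3.07e-47 in the exact binomial test). Mir18, at 220 and 171 CPM, had a ratio of -0.36 (-0.54 to -0.18, adjusted p = 0.000296). Mir17, at 2067 and 1643 CPM, had a ratio of -0.33 (-0.39 to -0.27, adjusted p = 2.75e-27). All 3 passed the test as higher in replicate 1, but Mir18 and Mir17 lay within the SD of 0.50. The call of Mir18 was lost with scaling over all genes, at an adjusted p of 0.0864 with TMM and 0.150 with DESeq2 size factors. With TMM scaling the ratio of Mir20a was -0.47, also within it. In all, 4 members were called higher in replicate 1 with a ratio beyond the SD, which 16.5% of tested genes were.

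The remaining miR-17 hairpins were not called. Mir92-1, at 390 and 412 CPM, had a ratio of 0.08 (-0.05 to 0.21, adjusted p = 0.385 in the exact binomial test). It passed as higher in replicate 2 with TMM scaling, at a ratio of 0.16 (adjusted p = 0.0363), and with DESeq2 size factors, at 0.21 (adjusted p = 0.00365). Mir19a rested on 1 and 13 counts, with an interval of -0.82 to 7.32, and Mir19b-1 had too few counts for the test.

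**Figure D4:**
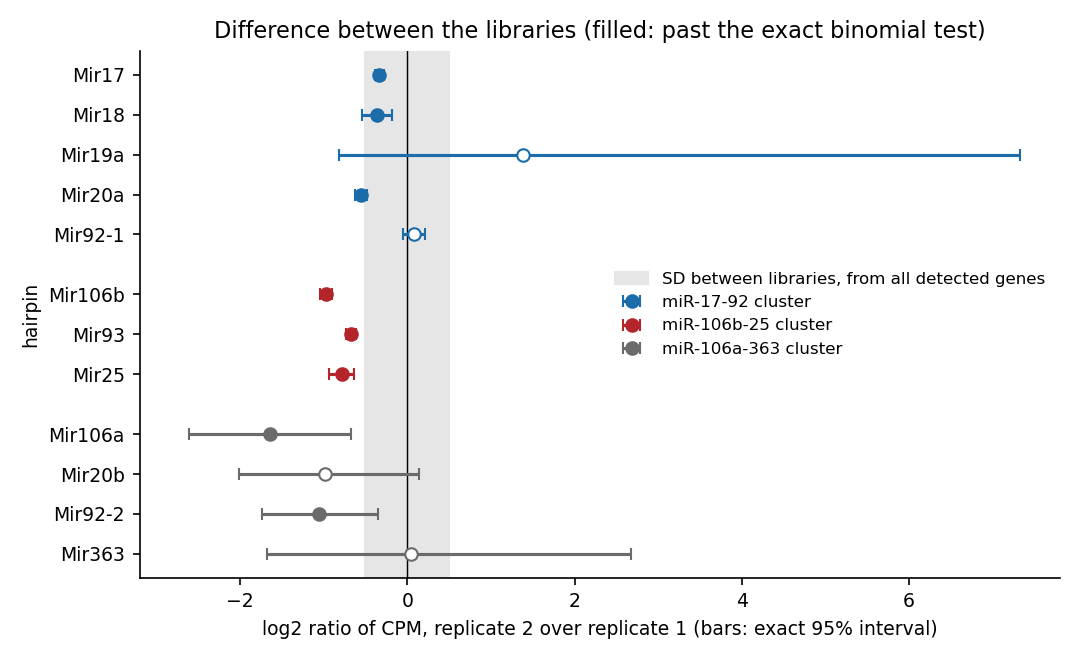
Log2 ratio of CPM, replicate 2 over replicate 1, for each tested hairpin of the 3 clusters, with exact 95% intervals. Filled points passed the exact binomial test and the grey band is the SD of 0.50 between libraries. The miR-106b-25 hairpins lie from -0.97 to -0.68, left of the band, and Mir17, Mir18 and Mir92-1 lie inside it.

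The clusters also differed from each other in their ratios. The summed miR-106b-25 counts had a log2 ratio of -0.79 (-0.83 to -0.75) and the summed miR-17 counts one of -0.36 (-0.40 to -0.32). The difference of these ratios was -0.43 (conditional exact 95% interval -0.49 to -0.37), which was beyond counting error and does not depend on the scaling of the libraries. Its spread between replicates was not measured, since each cluster has 1 ratio. The miR-17 sum includes Mir17, Mir92-1 and the miR-19 hairpins, whose levels are uncertain because reads that aligned to several places were not counted.

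Members with the same seed were also compared across the clusters. For the AUUGCAC seed, Mir25 differed by -0.86 (-1.06 to -0.66) relative to Mir92-1. For the AAAGUGC seed, Mir106b differed by -0.64 (-0.73 to -0.54) relative to Mir17 and by -0.42 (-0.52 to -0.32) relative to Mir20a. Mir93 differed by -0.34 (-0.43 to -0.26) relative to Mir17 and by -0.13 (-0.22 to -0.03) relative to Mir20a. In each of these 5 pairs, which share genes and are not independent, the interval lay below 0, so the Mcm7 hairpin was relatively lower in replicate 2 beyond counting error. The coefficient of variation above gives an SD of 0.71 for the difference of 2 single-gene ratios, and only that of Mir25 and Mir92-1 was beyond it. That pair rests on the uncertain level of Mir92-1, whose guide strand is shared with Mir92-2.

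Hairpins of the same cluster were compared in the same way. Mir25 and Mir93 differed by -0.11 (-0.27 to 0.05) and Mir18 and Mir17 by -0.03 (-0.22 to 0.16), both with 0 inside the interval. Mir106b differed by -0.29 (-0.39 to -0.20) relative to Mir93, and Mir20a by -0.22 (-0.31 to -0.12) relative to Mir17. Mir92-1 stood apart from the other hairpins of its transcript by 0.41 (0.27 to 0.55) relative to Mir17, 0.44 (0.22 to 0.67) relative to Mir18 and 0.63 (0.48 to 0.78) relative to Mir20a. All of these were within the SD of 0.71, and those of Mir92-1 rest on its uncertain level.

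Base composition differed between the clusters along with the ratios. The hairpins of Mir106b, Mir93 and Mir25 held 57.3, 55.7 and 63.1% G and C, and the miR-17 hairpins 43.7 to 47.5%. Over the 274 of 324 detected genes with a RefSeq hairpin, Spearman's rho of hairpin GC content and log2 ratio was -0.0993, a description across genes of the same 2 libraries. The median ratio was -0.17 for the 77 genes with at least 55% G and C and -0.09 for the other 197. The part of GC content in the ratios of the members was not tested.

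Markers of several other cell types also differed between the libraries. The erythroid markers, Mir451a and Mir144, summed to 2703 and 587 CPM in replicates 1 and 2. The 10 epithelial markers had 518 and 255 CPM, and the 5 smooth muscle and fibroblast markers 132820 and 63364 CPM. The 7 white blood cell markers in the table had 3525 and 3075 CPM, and the endothelial gene Mir126a 93328 and 103370 CPM. No marker of these lists was at 0 in both libraries. Single markers did not all follow the sums. Of the smooth muscle and fibroblast markers, 4 were tested, and 2 were higher in replicate 1, led by Mir143, while Mir214 was higher in replicate 2. Of the 9 striated muscle markers, 5 were higher in replicate 2, led by Mir206, and 2, Mir1a-2 and Mir133a-2, were higher in replicate 1. Both erythroid markers and 7 of the 8 epithelial markers tested were higher in replicate 1. The white blood cell markers were split, with 3 of the 6 tested higher in replicate 1 and 2 lower there. Reads that aligned to several places are missing from these sums and calls too. The part of these cell types in the members' ratios was not tested.

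The X-linked cluster and the other genes with a member's seed were compared by the same test. In the X-linked cluster, 4 genes could be tested, of which Mir106a and Mir92-2 were higher in replicate 1. That call was made for 30.2% of all tested genes with library totals, a share that depends on the scaling. Mir106a had a log2 ratio of -1.65 (-2.61 to -0.67, adjusted p = 0.00148 in the exact binomial test) on 19 and 21 counts. Mir92-2 had a ratio of -1.06 (-1.73 to -0.35, adjusted p = 0.0075) on 30 and 50 counts. Mir20b, at -0.99 (-2.01 to 0.14), was not called. Mir92b was called higher in replicate 1, at -1.62 (-2.67 to -0.55), and Mir32 was not called, at 0.20 (-0.22 to 0.67).

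The genes whose ratio was nearest to that of the summed miR-106b-25 counts were Mir669o at -0.77, Mir34c at -0.81 and Mir203 at -0.73, among 185 other genes with at least 100 counts in each library. They had 63.6 and 37.4 CPM, 113 and 64.5 CPM, and 360 and 217 CPM in replicates 1 and 2. With 2 libraries this likeness is that of a single ratio. Mir34c is known as a microRNA induced by p53, and Mir203 as one of epithelium. Mir669o belongs to a family of near-identical hairpins, so its level is uncertain.

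**Figure D5:**
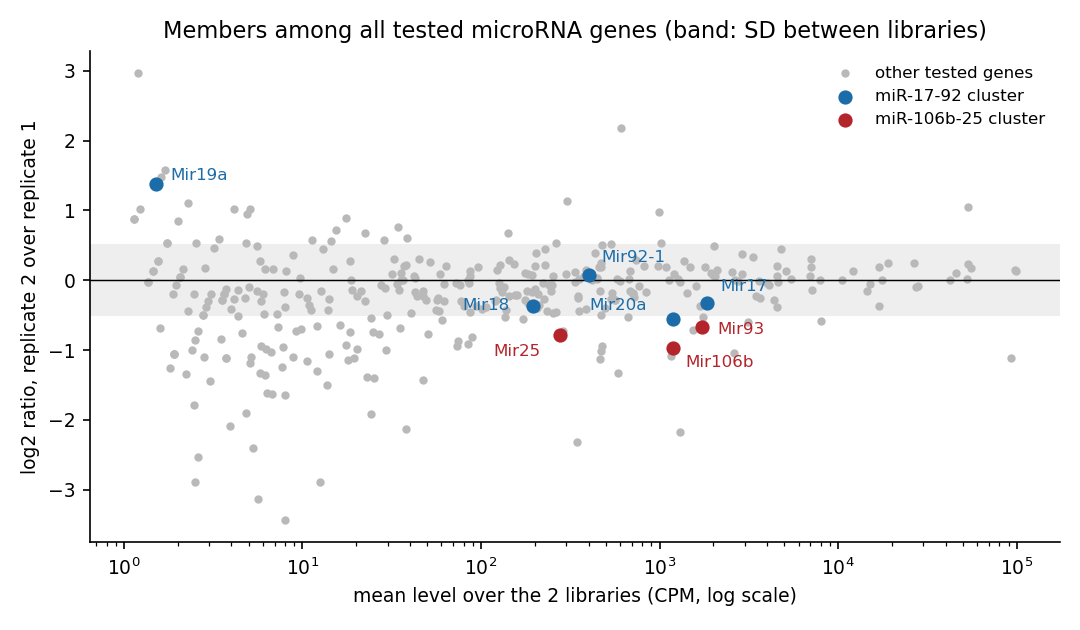
Log2 ratio of replicate 2 over replicate 1 against mean level in CPM, on a log axis, for all 364 tested microRNA genes, with the 8 tested members in colour. The grey band is the SD of 0.50 between libraries. The miR-106b-25 members and Mir20a lie below the band and the called members Mir17 and Mir18 inside it.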

How the data were processed

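For each library the authors deposited raw counts in 3 columns for 2202 microRNA genes. The labels name the mm10 assembly, and the readme that came with each library names GENCODE M21. The aligner and the counter were not given in the sources used here. Judged by their values, the columns count reads on either strand, the gene strand and the opposite strand. The gene strand was used. Reads on microRNA genes were 21.4% and 22.5% of all 7367359 and 24096793 reads in replicates 1 and 2. The remaining reads, tallied on 4 lines that name no gene (unaligned, aligned to several places, outside genes, ambiguous), stayed out of the totals. All 2202 identifiers matched GENCODE M21.

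CPM was computed from totals over microRNA genes. Log2 ratios had 0.5 counts added to each side, and intervals are exact (Clopper-Pearson, 95%). The exact binomial test took the library totals as odds, with calls at an adjusted p of 0.05. It was tested on simulated counts that had counting as the only error. That setting leaves out the spread between libraries, so it cannot show the rate of false calls here. edgeR 4.0.16 gave the coefficient of variation and TMM scaling and DESeq2 1.42.0 the size factors, in R 4.3.3, over genes with at least 2 CPM in both libraries. Python 3.11.15 was used with scipy 1.17.1, pandas 2.3.3, matplotlib 3.10.9 and numpy 2.4.6. The genes named are the members, the X-linked cluster, genes sharing a seed, marker lists and the 3 genes nearest in ratio. Alternatives covered scaling, strand, denominator, minimums, hairpin length and each replicate left out. The members, lists and tests were chosen with earlier results of these data known.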

Additional observations from a re-analysis of the deposited data

How the results depend on the processing

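The 6 members higher in replicate 1 were the same 6 genes with TMM scaling, DESeq2 size factors, the either-strand column, no filter and a minimum of 50 summed counts. Scaling moved all ratios by 0.08 (TMM) or 0.13 (DESeq2), and then 1 member, Mir92-1, was called higher in replicate 2, against 0 with library totals. Over all genes, calls of higher in replicate 1 and in replicate 2 numbered 110 and 55 with totals, 90 and 76 with TMM and 80 and 95 with DESeq2. Scaling on all genes, without the minimum of 2 CPM, was added after the data were examined. DESeq2 leaves out genes with a count of 0 in either library, so its factors used fewer genes, among them some with few counts. This added scaling moved ratios by 0.18 (TMM) and 0.20 (DESeq2), left 5 members higher in replicate 1 without Mir18, and called 1, Mir92-1, higher in replicate 2. The mean share of the miR-17 cluster was 0.476% in the either-strand column, where the members kept their counts and the total over genes was smaller. Why that total was smaller was not tested. With all aligned reads as denominator the shares were 0.0858% for miR-17 and 0.0750% for miR-106b-25. Leaving out each replicate gave 0.320 to 0.409% for miR-17, 0.234 to 0.405% for miR-106b-25 and 7 to 8 detected members, the 8th being Mir19a. The 7 detected members were also found at a CPM minimum of 1 or 5. The 1573213 counts of replicate 1 limit Mir19a and Mir19b-1, at 1 count each there. With 1 library on each side, the library comparison could not be repeated without a replicate.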
